A study of Mus musculus with 165 samples.

Results

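The G protein-coupled receptors through which myeloid cells sense chemokines and formylated peptides were followed at the transcript level as PUER cells differentiated in 2 cytokines. They were 8 of the 36255 genes quantified, chosen by symbol: the chemokine receptors *Ccr1*, *Ccr2*, *Ccr7*, *Cxcr2*, *Cxcr4* and *Cx3cr1* and the formyl peptide receptors *Fpr1* and *Fpr2*. Chemokines are small secreted proteins whose gradients, read by these receptors through inhibitory G proteins, steer leukocytes out of the bone marrow, through the blood and into tissue. Formyl peptide receptors do the same for peptides released by bacteria and damaged mitochondria. In mouse marrow, Cxcr4 holds developing neutrophils near its ligand Cxcl12 while Cxcr2 signals favour their release, and Ccr2 and Cx3cr1 are best known from monocytes.

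PUER cells are a line of myeloid progenitors from mice that lack *Spi1*, the gene of the transcription factor PU.1 (Spi1-/-), and carry a fusion of PU.1 with the part of the estrogen receptor that binds its ligand. The ligand 4-hydroxy-tamoxifen (OHT) therefore switches PU.1 on. Every group came from this single line, the undifferentiated cells included, and the wells sampled were the replicates, so p-values measure the spread between wells and libraries. Undifferentiated cells grew in IL3 (5 ng/ml) without OHT and were the start of both time courses (3 libraries). The IL3 course, towards macrophages, followed cells in IL3 with 200 nM OHT from 1h to 168h (81 libraries). The GCSF course, towards neutrophils, began with 48 h in GCSF (10 ng/ml) in place of IL3, sampled before OHT as GCSF 0h (3 libraries), and went on in GCSF with 100 nM OHT from 1h to 168h (78 libraries). The cytokine, the OHT dose and the pre-treatment thus cannot be told apart. Medium was in part renewed with fresh OHT at 40h, 88h and 136h. Each time point had its own plate, so that time and plate cannot be told apart, and cells were detached with trypsin after 24h. In bulk RNA fewer cells of a type and less RNA per cell cannot be told apart.

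Between 14600246 and 33147945 reads per library fell on genes, and 3 reads, taken as the floor, are worth 1.96 to 5.51 normalized counts (a floor for counting error alone). All levels below are normalized counts, that is reads divided by the size factor of the library, and means are given ± SD (n = 3 unless stated). Fold changes and differences are on the log2(normalized count + 1) scale, which understates the change of low genes, and their standard error is abbreviated SE. All 8 receptors passed the filter on low values, *Ccr7* with a highest value of 5.80, and 17414 genes were tested with limma. A receptor is said to rise or fall where the adjusted p (Benjamini-Hochberg) was under 0.05 and the absolute log2 fold change over 0.58. The IL3-OHT 96h and 144h libraries, which the study left out, stood apart for several receptors and enter only the comparison with their neighbours. GCSF-OHT 96h, 112h and 152h had 2 libraries each. The 14 neutrophil marker genes summed to 299420 to 306139 normalized counts in undifferentiated cells, 410180 to 460543 at GCSF 0h, 758086 to 804508 at GCSF-OHT 168h and 262537 to 296046 at IL3-OHT 168h. A few abundant genes carry this sum: *Elane* had a mean of 108129 in undifferentiated cells and 28723 at IL3-OHT 168h, where gene by gene 6 of the 14 were higher than in undifferentiated cells and 3 lower, with a median log2 fold change of 0.43. The 12 monocyte and macrophage markers summed to 31066 to 33956 in undifferentiated cells, 22604 to 26073 at GCSF 0h, 23567 to 26311 at IL3-OHT 168h and 15851 to 17004 at GCSF-OHT 168h, and *Klf4*, a member of the list, never exceeded 2 reads. Most of that sum is *Ly6c2*, with a mean of 22042 in undifferentiated cells and 14436 at IL3-OHT 168h. Gene by gene, at IL3-OHT 168h, 6 of the 10 tested were higher than in undifferentiated cells and 2 lower, with a median of 1.30, and the macrophage marker *Adgre1* went from a mean of 8.65 to 334. The part of these markers in the receptor results was not tested. *Spi1* had 4482 to 13387 normalized counts, in which reads of the fusion and of the endogenous gene were not told apart.

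Positions are those of GRCm38 with the GENCODE M21 annotation. *Ccr1* (ENSMUSG00000025804, chromosome 9 from 123962124 to 123968692, minus strand) and *Ccr2* (ENSMUSG00000049103, chromosome 9 from 124101950 to 124113557, plus strand) are 133257 bases apart, and *Cx3cr1* (ENSMUSG00000052336, chromosome 9 from 119901616 to 120069879, minus strand) lies on the same chromosome. *Fpr1* (ENSMUSG00000045551, chromosome 17 from 17876471 to 17883940, minus strand) and *Fpr2* (ENSMUSG00000052270, chromosome 17 from 17887824 to 17893952, plus strand) face away from each other with 3883 bases between them. *Cxcr2* (ENSMUSG00000026180, chromosome 1 from 74153989 to 74161246, plus strand), *Cxcr4* (ENSMUSG00000045382, chromosome 1 from 128588199 to 128592293, minus strand) and *Ccr7* (ENSMUSG00000037944, chromosome 11 from 99144196 to 99155077, minus strand) lie elsewhere. A share of 48.3% of the 31-base words in the *Fpr2* transcript also occurs in another gene, mostly in *Gm5966*, where no library held over 2 reads, so the split of reads in that family is uncertain. For the other 7 receptors the share was between 0% and 7.76%, the latter for *Cxcr2*. Counted separately, 12.1% of the words of *Cxcr2* occur in other genes on the opposite strand, and these shares may overlap. The longest *Cx3cr1* model overlaps *Gorasp1*, *Csrnp1* and *Xirp1* on its own strand and 6 genes on the other, and whether the counting used strand is not given in the sources used here.

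*Ccr2*, *Cx3cr1*, *Fpr1* and *Fpr2* rose in both courses, and their promoter windows (250 bases before to 50 after the start of transcription, RefSeq, GRCm38.p6, 5′ to 3′ on the strand of the gene) are shown because PU.1, the factor that OHT switches on here, binds sites built on the ETS core GGAA. Capitals mark GGAA and its reverse complement TTCC. The windows are chr9:124101933-124102232 (plus strand) for *Ccr2*, chr9:120068247-120068546 (minus strand) for *Cx3cr1*, chr17:17883890-17884189 (minus strand) for *Fpr1* and chr17:17887574-17887873 (plus strand) for *Fpr2*.
Ccr2: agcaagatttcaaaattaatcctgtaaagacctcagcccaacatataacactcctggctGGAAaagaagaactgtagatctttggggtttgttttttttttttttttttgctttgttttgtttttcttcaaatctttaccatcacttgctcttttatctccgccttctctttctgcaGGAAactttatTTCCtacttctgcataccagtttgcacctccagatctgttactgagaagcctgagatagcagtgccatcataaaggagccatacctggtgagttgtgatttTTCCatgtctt
Cx3cr1: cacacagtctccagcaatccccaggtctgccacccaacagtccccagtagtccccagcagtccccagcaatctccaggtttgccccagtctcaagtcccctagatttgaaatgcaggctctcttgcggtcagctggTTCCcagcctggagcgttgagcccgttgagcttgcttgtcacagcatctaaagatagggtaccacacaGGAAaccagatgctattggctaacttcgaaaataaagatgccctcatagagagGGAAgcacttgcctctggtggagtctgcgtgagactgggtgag
Fpr1: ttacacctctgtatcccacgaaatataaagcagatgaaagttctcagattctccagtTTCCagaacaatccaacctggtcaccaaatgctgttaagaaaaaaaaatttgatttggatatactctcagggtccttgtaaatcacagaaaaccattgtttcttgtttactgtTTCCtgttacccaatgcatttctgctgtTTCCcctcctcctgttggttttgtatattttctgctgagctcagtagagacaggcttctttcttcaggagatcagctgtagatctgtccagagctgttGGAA
Fpr2: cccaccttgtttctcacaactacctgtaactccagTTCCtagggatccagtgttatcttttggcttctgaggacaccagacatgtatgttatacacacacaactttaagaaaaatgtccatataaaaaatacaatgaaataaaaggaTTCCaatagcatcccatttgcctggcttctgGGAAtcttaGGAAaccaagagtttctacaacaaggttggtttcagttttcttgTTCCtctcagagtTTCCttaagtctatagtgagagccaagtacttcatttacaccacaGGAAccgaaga
GGAA on either strand occurs in all 7 receptor windows that could be matched, and in 96.0% of the 32851 promoter windows of the same length, so its presence does not set the receptors apart. The longer form GAGGAA, which contains GGAA, occurs on either strand in 28.3% of all windows and in 3 of the 7, those of *Ccr1*, *Cxcr2* and *Fpr2*. PU.1 binding, which the study profiled by CUT&RUN in undifferentiated and 48h IL3-OHT cells, was not analysed here, and a match of letters is a description only. No window was matched to *Ccr7*.

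Which receptors each course had gained or lost by its end was asked first. In IL3 conditions, 4 receptors (*Ccr2*, *Cx3cr1*, *Fpr1*, *Fpr2*) were higher at 168h than in undifferentiated cells and *Ccr1* was lower, 5 of 8 against 25.4% of all genes tested. In GCSF conditions, 6 of 8 were higher at 168h than at GCSF 0h (*Ccr1*, *Ccr2*, *Cxcr2*, *Cx3cr1*, *Fpr1* and *Fpr2*), against 24.8% of all genes called in either direction. Against undifferentiated cells, 5 of 8 were higher at GCSF-OHT 168h, where 39.1% of all genes were called. The GCSF pre-treatment alone changed 4 of 8, with *Ccr2*, *Cx3cr1* and *Fpr1* higher and *Ccr1* lower, against 33.7% of all genes. These comparisons share the undifferentiated or GCSF 0h libraries and are given side by side. Over the whole of each course, limma's moderated F called 7 receptors in IL3 (69.7% of all genes) and 7 in GCSF (62.5% of all genes), and *Ccr7* in neither.

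**Figure D1:**
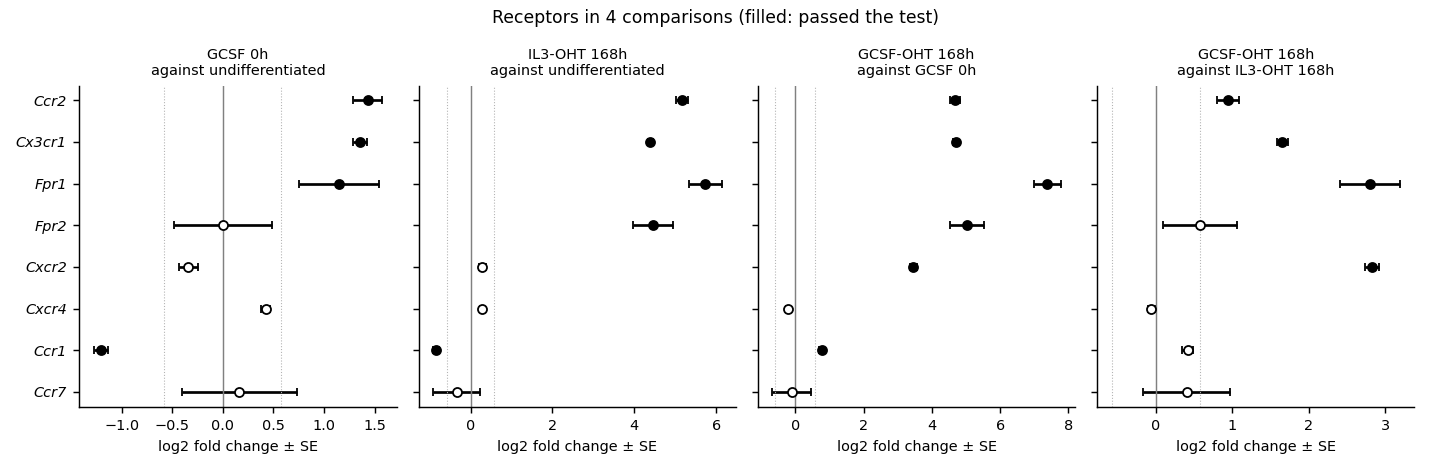
Log2 fold change (x axis, with its standard error as bars) of the 8 receptors in 4 comparisons, filled where the test was passed and open where it was not, with dotted lines at 0.58 in both directions. *Ccr2*, *Cx3cr1* and the formyl peptide receptors lie far to the right in both 168h comparisons, *Cxcr2* at 3.46 does so in GCSF, and *Ccr1* lies on opposite sides of 0 at IL3-OHT 168h (-0.84) and GCSF-OHT 168h (0.78).

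*Ccr2*, the receptor of Ccl2 that monocytes need to leave the marrow, rose in both courses. Its normalized counts were 23.6, 58.3 and 66.2 in the undifferentiated libraries and 1529.7, 1875 and 1596 at IL3-OHT 168h. They were 134.9, 101.8 and 136.1 at GCSF 0h and 2790.0, 3109 and 3776 at GCSF-OHT 168h. No library of a later group in these sets reached down to its start, and the libraries of GCSF 0h all lay above the undifferentiated ones. The log2 fold change was 5.17 (SE 0.15, adjusted p = 2.34e-60) in IL3 and 4.69 (SE 0.15, adjusted p = 2.17e-56) from GCSF 0h in GCSF. The pre-treatment itself gave 1.43 (SE 0.15, adjusted p = 5.68e-16).

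Most of the rise of *Ccr2* fell within the first day. In IL3 the level was 44.5 at 1h and 101.7 at 2h, a step of 1.18 (SE 0.15, adjusted p = 8.94e-12), and the steps from 4h to 8h (1.07), 8h to 12h (0.89) and 12h to 16h (0.71) followed. By 24h it was 1679.5 ± 186.2 in IL3 and 2051 ± 236 in GCSF. After OHT in GCSF, *Ccr2* passed between 4h and 8h (1.13) and again between 8h and 12h (0.62). IL3 conditions were highest at 48h, with 2025 ± 105.2, while GCSF conditions had a first maximum of 3315 ± 305 at 40h, stood at 1427 ± 200.5 (SD, n = 2) at 112h and at 3225 ± 503 at the end, which differed from the 40h level by less than the SD.

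*Ccr1*, a receptor for Ccl3, Ccl5 and the related Ccl6 and Ccl9, moved the other way in IL3. It was highest in IL3 cells without OHT and in the first hours with it, at 5757, 6289 and 5995 normalized counts in undifferentiated cells and 6957 ± 342 at IL3-OHT 1h. It then fell between 2h and 3h by 0.64 (SE 0.07, adjusted p = 2.44e-13) on the log2 scale and stood at 2996 ± 26.5 at 8h. From 3h on its IL3 means lay between 2607 and 4472. At IL3-OHT 168h the libraries had 3064, 3666 and 3342, all below the undifferentiated ones, with a log2 fold change of -0.84 (SE 0.07, adjusted p = 2.04e-20). In GCSF the fall came before OHT: GCSF 0h had 2510.0, 2604 and 2720.4, a change of -1.20 (SE 0.07, adjusted p = 1.51e-31). From there *Ccr1* rose to 4243, 4543 and 4625 at 168h, a log2 fold change of 0.78 (SE 0.07, adjusted p = 2.42e-18), and all 3 libraries lay above those of GCSF 0h but below those of undifferentiated cells, with a change of -0.43 (SE 0.07, adjusted p = 6.69e-08) against the latter that did not pass the fold-change threshold. At GCSF-OHT 104h, replicate 3 had 4577 against 3219 and 2951 in the other libraries, and it was also the highest of the 3 for *Ccr2*, *Cxcr2* and *Fpr1*.

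*Ccr7*, which guides dendritic cells and lymphocytes to lymph nodes, was at the edge of detection throughout. It was at 0 in 93 libraries, reached 3 reads or more in 9, and its highest value was 8 reads, a normalized count of 5.80. No time point had a mean above 2.77 (GCSF-OHT 136h). At this depth no difference of *Ccr7* was detectable over either course (limma's moderated F, adjusted p = 0.378 in IL3 and 0.701 in GCSF), and no fold change is given. The markers of dendritic cells, cells known for *Ccr7*, summed to 120.7 to 148 normalized counts in undifferentiated cells. Their sum was 182 to 247 at IL3-OHT 168h and 88.5 to 117.2 at GCSF-OHT 168h. Most of that sum is *Itgax*, with a mean of 75.6 in undifferentiated cells and 179.5 at IL3-OHT 168h. Between the same groups the mean of *Cd74* went from 1.62 to 19.2, while that of *Zbtb46* went from 9.57 to 3.91. Of the low members, *H2-Aa* had no more than 1 read and *Ccl22* no more than 4 in any library.

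*Cx3cr1*, the receptor of the membrane-bound chemokine fractalkine, passed the test within the first hour of OHT in both courses. The undifferentiated libraries held 61.5, 60.3 and 63.8 normalized counts, and the IL3 means were 110.3 at 1h, 447 at 2h, 974 at 3h and 2924 at 12h. The libraries of each of these groups lay above all libraries of the one before. The step to 1h was 0.82 (SE 0.07, adjusted p = 3.19e-18), that from 1h to 2h 2.01 (SE 0.07, adjusted p = 1.45e-49) and that from 2h to 3h 1.13 (SE 0.07, adjusted p = 1.50e-27). No other receptor passed in the first hour of either course. In GCSF the pre-treatment had already brought *Cx3cr1* to 201.5, 149.6 and 135.1, a change of 1.35 (SE 0.07, adjusted p = 2.01e-35), and the first hour of OHT added 1.72 (SE 0.07, adjusted p = 2.14e-43), to 531 ± 40.6. At 12h it stood at 4320.3 ± 41.9 in GCSF.

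Later levels of *Cx3cr1* differed between the cytokines. In IL3 it was highest at 48h, 3536 ± 262, and its libraries had 539, 512 and 513 at 136h. Its IL3 means at the left-out 96h and 144h were 3229 ± 258 and 2748 ± 221. In GCSF it was 2119 ± 51.03 at 88h, 2454 ± 149.2 at 136h and highest at 144h with 4786 ± 116.3. The libraries at 168h had 1217, 1423 and 1330.0 in IL3 and 3999, 3896 and 4607 in GCSF, which did not overlap. Against the start of OHT the log2 fold change at 168h was 4.39 (SE 0.07, adjusted p = 5.19e-85) in IL3 and 4.69 (SE 0.07, adjusted p = 2.78e-88) in GCSF. The difference between these effects, 0.30 (SE 0.10, adjusted p = 0.0103), did not pass the fold-change threshold, with GCSF 0h already above undifferentiated cells.

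*Cxcr2*, the receptor through which Cxcl1, Cxcl2 and their relatives attract neutrophils, had, with *Fpr1*, the largest difference of the 8 between the cytokines at 168h. Undifferentiated libraries had 406, 395 and 369.9 normalized counts and GCSF 0h 297, 303 and 324, a change of -0.34 (SE 0.09, adjusted p = 0.00104) that did not pass the fold-change threshold. In IL3 *Cxcr2* fell to 123.3, 114.6 and 124.7 at 8h, a log2 fold change of -1.68 (SE 0.09, adjusted p = 3.52e-33), and the step from 2h to 3h was -0.67. Its highest IL3 mean was 698 ± 28.5 at 120h, and at 168h the libraries had 424, 511 and 501, above every undifferentiated library but by only 0.29 (SE 0.09, adjusted p = 0.00592) on the log2 scale, which did not pass the fold-change threshold.

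In GCSF conditions *Cxcr2* was 156.6 ± 16.1 at 4h and 221, 199.95 and 210.6 at 8h, a change of -0.55 (SE 0.09, adjusted p = 5.53e-07) against GCSF 0h that lay just short of the threshold and passed it without replicate 1, at -0.61 (adjusted p = 1.52e-04). Later levels were 589 ± 25.4 at 24h, 1632 ± 136.05 at 88h and 3572 ± 159.1 at 160h. The libraries at 168h had 3575, 3418 and 3203, all far above the highest of IL3-OHT 168h. The log2 fold change from GCSF 0h was 3.46 (SE 0.09, adjusted p = 3.15e-62). Only the step from 8h to 12h (0.69) and that from 96h to 104h (0.64) passed on their own, the latter from a time point with 2 libraries. At 104h replicate 3 had 2068 against 1683 and 1610 in the other libraries. Over all genes its counts differed from theirs by a chi-square per gene of 47.5 and 68.5, against a median of 5.73 over the 162 replicate pairs.

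*Cxcr4*, the receptor of Cxcl12 that retains cells in the marrow, was high in every group and did not pass the test at the end of either course. Its lowest library value was 1738 and its highest 6189. Undifferentiated libraries had 3893, 3709 and 3559 and IL3-OHT 4h 2020.2, 1766 and 1738, the lowest mean of any group, and the mean was 3759 ± 84.8 at 24h. At IL3-OHT 8h the log2 fold change against undifferentiated cells was -0.87 (SE 0.04, adjusted p = 2.69e-36), and at 168h it was 0.27 (SE 0.04, adjusted p = 7.70e-08), with 4629, 4368 and 4474 in the libraries. In GCSF the mean was 4988 ± 125.2 at GCSF 0h, 4489.8 ± 204.7 at 4h and 4311 ± 223 at 168h (SD, n = 3 each), and the change over the course of OHT was -0.21 (SE 0.04, adjusted p = 2.14e-05). No step between neighbouring time points of *Cxcr4* passed the test in either course.

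Levels of *Cxcr2* and *Cxcr4* were also set against each other per kilobase of transcript, since the pair is known for opposite effects on neutrophil release. The ratio of *Cxcr2* to *Cxcr4* was 0.0621 ± 0.000823 in undifferentiated cells, 0.0366 ± 0.000919 at GCSF 0h and 0.0206 ± 0.00122 at GCSF-OHT 4h (SD, n = 3 each). It was 0.166 ± 0.00856 at GCSF-OHT 88h and 0.467 ± 0.00667 at 168h, while IL3-OHT 168h stood at 0.0634 ± 0.00801. The libraries of undifferentiated cells and IL3-OHT 168h overlapped in this ratio, and those of GCSF-OHT 168h lay apart.

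The formyl peptide receptors were nearly silent before OHT. *Fpr1*, the high-affinity receptor of bacterial formyl peptides, had 1, 0 and 0 reads in the undifferentiated libraries and 7 reads in all at GCSF 0h, where the normalized counts were 1.85, 0.885 and 3.73. The limma change of the pre-treatment, 1.15 (SE 0.40, adjusted p = 0.00863), rests on these few reads and was 0.61 (adjusted p = 0.268) without replicate 3 and 0.39 (adjusted p = 0.142) with a pseudocount of 5, while edgeR and DESeq2 did not call it (adjusted p = 0.125 and 0.115), and the ratio of reads, 5.52, had a 95% counting interval of 0.709 to 249. At 168h the libraries had 81.9, 81.4 and 49.96 in IL3 and 397, 441 and 664 in GCSF, and the groups did not overlap. In reads per size factor, IL3-OHT 168h stood 182 times above undifferentiated cells (95% counting interval 32.4 to 7233) and GCSF-OHT 168h 241 times above GCSF 0h (1518 reads against 7, interval 116.8 to 601). The limma log2 fold changes were 5.73 (SE 0.40, adjusted p = 4.06e-26) and 7.38 (SE 0.40, adjusted p = 1.17e-34).

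*Fpr1* had few reads in the first hours of either course. In IL3 it was still at 2 reads in all 3 libraries together at 12h and reached 11.02 ± 2.46 normalized counts at 24h and 44.2 ± 5.72 at 48h. In GCSF it was 11.3 ± 5.65 at 12h, 37.1 ± 6.55 at 24h and 143 ± 12.9 at 48h, and its highest mean was 513 ± 91.3 at 160h. The step from 12h to 16h in IL3 was 2.06 (SE 0.40, adjusted p = 3.19e-05) and that from 4h to 8h in GCSF was 1.48 (SE 0.40, adjusted p = 0.00188). At 8h the changes of 1.31 (SE 0.40, adjusted p = 0.00277) in IL3 and 1.07 (SE 0.40, adjusted p = 0.0268) in GCSF rested on 8 and 21 reads, and without replicate 2 they were 0.64 (adjusted p = 0.324) and 0.46 (adjusted p = 0.586). Neither was called in edgeR (adjusted p = 0.0751 and 0.0857).

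*Fpr2*, which answers formyl peptides and also annexin A1, serum amyloid A and cathelicidin, was at 0 reads in every library without OHT. It had 13.1, 27.4 and 25.4 normalized counts at IL3-OHT 168h and 31.5, 26.1 and 38.5 at GCSF-OHT 168h, ranges that overlapped. Taken against 3 reads over the group in place of 0, it was at least 19.6-fold higher in IL3 than in undifferentiated cells and at least 35.97-fold higher in GCSF than at GCSF 0h. The highest mean was 43.4 ± 12.3 at GCSF-OHT 40h, and the lowest later GCSF mean was 8.71 ± 0.666 (SD, n = 2) at 112h. In GCSF the step from 8h to 12h, 1.66 (SE 0.48, adjusted p = 0.00955), passed the test, and in IL3 none did. The fitted changes at 8h, 1.31 (SE 0.48, adjusted p = 0.0160) in IL3 and 1.69 (SE 0.48, adjusted p = 0.00309) in GCSF, came from 5 and 9 reads, and without replicate 1 they were 1.01 (adjusted p = 0.178) and 1.53 (adjusted p = 0.0593).

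**Figure D2:**
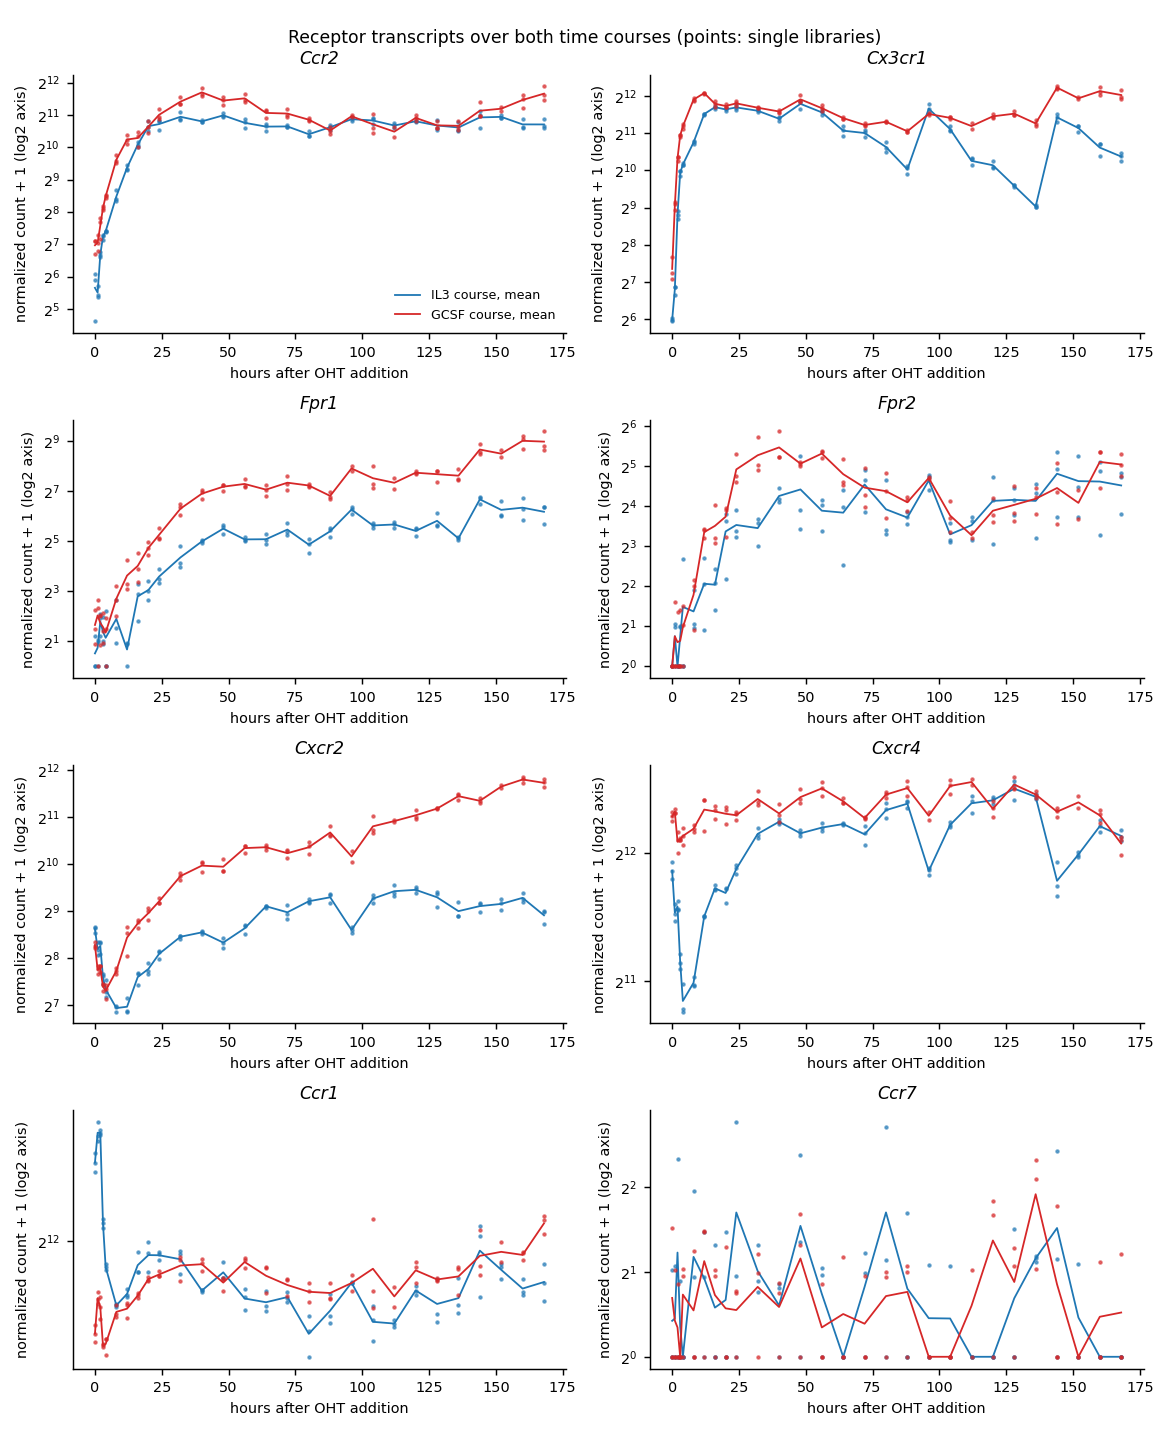
Normalized count + 1 (y axis, log2) of the 8 receptors against hours after OHT addition (x axis) in the IL3 and GCSF courses, with undifferentiated cells and GCSF 0h at 0 h, lines for the means and points for single libraries. *Cx3cr1* climbs within the first hours, *Ccr2* over the first day and *Fpr1* and *Fpr2* from about 12h on, while *Cxcr2* in GCSF climbs through to 3572 at 160h and *Ccr7* stays near the floor.

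Changes from the start of OHT were also tested within the first day. At 8h of OHT, 7 of 8 receptors had changed in IL3 (29.7% of all genes) and 4 of 8 in GCSF (9.40% of all genes), the latter being 2 with a pseudocount of 5 and with only the groups compared in the fit. Among the IL3 calls, those of *Fpr1* and *Fpr2* rested on 8 and 5 reads, and each was lost when a replicate was left out, as given above. At 24h, 5 of 8 had changed in IL3 (28.4% of all genes) and 5 of 8 in GCSF (10.3% of all genes). By then *Ccr2* stood 5.18 and 4.04 above its start on the log2 scale and *Cx3cr1* 5.72 and 4.47, in IL3 and GCSF respectively. *Cxcr2* in IL3 at 24h was at -0.53 (SE 0.09, adjusted p = 5.65e-07) and passed without replicate 3, at -0.59 (adjusted p = 1.20e-06). *Cxcr2* at 24h was 0.93 (SE 0.09, adjusted p = 1.44e-15) above GCSF 0h in GCSF. Over the whole courses, with 25 IL3 and 28 GCSF steps between consecutive time points for each of the 8 receptors, 21 steps passed in IL3 and 15 in GCSF. Over all genes, 3.65% of the IL3 steps and 2.94% of the GCSF steps passed. The GCSF steps include the pre-treatment before OHT, where *Ccr1*, *Ccr2*, *Cx3cr1* and *Fpr1* passed.

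Whether OHT acted differently in the cytokines was tested as the difference between its effects, each from its own start. At 8h this interaction passed for 3 of 8 receptors (27.4% of all genes): *Ccr1*, where the effect in GCSF exceeded that in IL3 by 1.16 (SE 0.10, adjusted p = 1.93e-19), *Cxcr2* with 1.13 (SE 0.13, adjusted p = 8.12e-13) and *Cxcr4* with 0.78 (SE 0.06, adjusted p = 4.31e-21). All 3 had fallen in IL3 by 8h and had not passed the test in GCSF. At 168h it passed for 3 of 8 (25.7% of all genes): *Ccr1* with 1.62 (SE 0.10, adjusted p = 3.28e-29), *Cxcr2* with 3.17 (SE 0.13, adjusted p = 2.08e-43) and *Fpr1* with 1.64 (SE 0.56, adjusted p = 0.0108). The *Fpr1* value starts from 1 read in undifferentiated cells and was lost with a pseudocount of 0.5, at 1.16 (adjusted p = 0.178), in edgeR, at 0.66 (adjusted p = 0.938), and in DESeq2, at 0.47 (adjusted p = 0.804). It was also lost without replicate 1, at 1.49 (adjusted p = 0.0778), and without replicate 2, at 1.71 (adjusted p = 0.0551). For *Ccr2* the interaction at 8h was -0.29 (SE 0.21, adjusted p = 0.263) and passed without replicate 3, at -0.63 (adjusted p = 0.0453), and that at 168h was -0.48 (SE 0.21, adjusted p = 0.0466) and passed without replicate 2, at -0.69 (adjusted p = 0.0219), and without replicate 3, at -0.83 (adjusted p = 0.00752).

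Cells in GCSF-OHT and IL3-OHT were compared over the 25 time points that both courses share. On average 3 of 8 receptors were higher in GCSF (24.5% of all genes were called in either direction): *Fpr1* by 1.73 (SE 0.08, adjusted p = 1.87e-41), *Cxcr2* by 1.30 (SE 0.02, adjusted p = 2.35e-92) and *Cx3cr1* by 0.85 (SE 0.01, adjusted p = 1.97e-85). The averages of *Ccr2*, 0.49 (SE 0.03, adjusted p = 5.16e-32), *Cxcr4*, 0.38 (SE 0.01, adjusted p = 3.54e-70), and *Ccr1*, -0.07 (SE 0.01, adjusted p = 1.68e-05), did not pass the fold-change threshold. Nor did that of *Fpr2*, 0.53 (SE 0.10, adjusted p = 4.61e-07), which passed without replicate 2, at 0.62 (adjusted p = 8.98e-07), and in edgeR, at 0.60 (adjusted p = 5.65e-04). At 168h alone 4 of 8 were higher in GCSF (28.1% of all genes): *Cxcr2* by 2.83 (SE 0.09, adjusted p = 2.72e-53), *Fpr1* by 2.80 (SE 0.40, adjusted p = 6.90e-10), *Cx3cr1* by 1.65 (SE 0.07, adjusted p = 1.02e-42) and *Ccr2* by 0.95 (SE 0.15, adjusted p = 1.11e-08).

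Tested at each time point, 84 receptor differences passed, and 22.7% of all gene comparisons did. *Cxcr2* was higher in GCSF at 21 of 25 time points, all from 8h on, and the difference grew from 0.79 at 8h to 2.83 at 168h. *Fpr1* was higher at 22 of 25, the exceptions being 2h, 3h and 4h, where it was near the floor in both. Its calls at 1h and 8h also rested on few reads, with libraries that overlapped. There were 10 reads in GCSF against 2 in IL3 at 1h, and 21 against 8 at 8h. *Cx3cr1* was higher in GCSF at 14 of 25, in an early and a late phase: the difference was 2.26 at 1h, 0.11 at 24h and 2.23 at 136h. The late phase, from 80h on, was not even: the difference was 0.30 at 104h, which did not pass, and 0.80 at 152h. Mean IL3 counts were 521 at 136h and 2251 at 152h, against 2454 and 3921 (n = 2) in GCSF. At 96h, left out here, the means were 3229 in IL3 and 2928 (n = 2) in GCSF.

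*Cxcr4* was higher in GCSF at 7 of 25 time points, none later than 20h, with the largest difference, 1.29 (SE 0.04, adjusted p = 1.32e-51), at 4h, when the IL3 libraries were at their lowest. *Ccr1* was lower in GCSF at 3 of 25, those from 1h to 3h, with differences of -1.16 at 1h, -1.23 at 2h and -0.86 at 3h. *Ccr2* was higher in GCSF at 10 of 25, up to 12h, at 40h and 56h and at 160h and 168h. *Fpr2* was higher at 7 of 25, all between 12h and 64h.

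**Figure D3:**
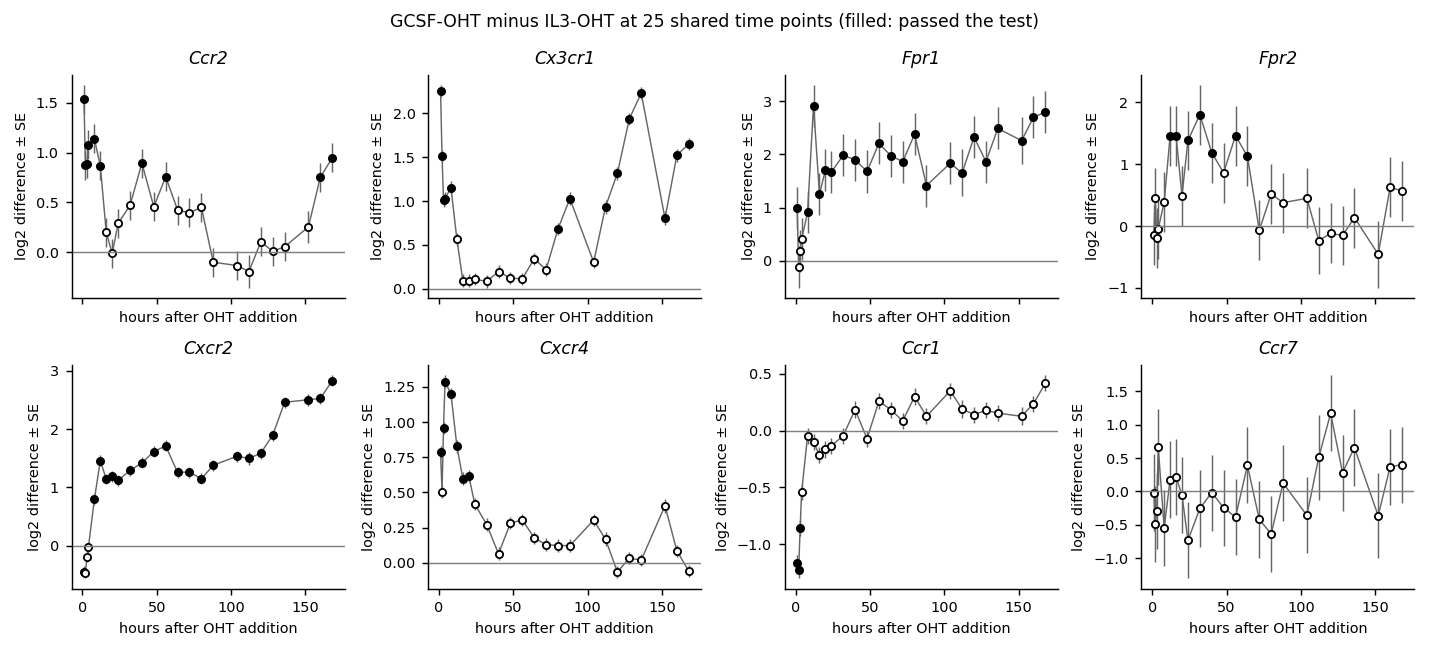
Difference between GCSF-OHT and IL3-OHT (y axis, log2 of normalized count + 1, with standard errors) of each receptor at the 25 shared time points (x axis, hours after OHT addition), filled where the test was passed. The *Cxcr2* difference climbs to 2.83, that of *Cx3cr1* has a high start at 2.26, a flat middle and a second high of 2.23 at 136h, and that of *Cxcr4* stays unfilled from 24h on.

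The time points 8 h after each renewal of medium and OHT were set against the mean of the time points on either side, with all libraries in the fit. The comparisons of IL3-OHT 96h and 144h were planned, and those of the other 4 time points, with all alternatives to these 6, were chosen after the values had been seen. *Cx3cr1* passed at 3 of these 6 time points, more than any other receptor. Its IL3 libraries had 957, 1065 and 1099 normalized counts at 88h, before the rise to 2997, 3184 and 3507 at 96h, followed by 2173, 2120.1 and 2328 at 104h. They had 539, 512 and 513 at 136h, then 2777, 2513 and 2953 at 144h, followed by 2078, 2356 and 2320.1 at 152h. In both places the 3 libraries after the renewal lay above all libraries on either side. The IL3 step from 104h to 112h was -0.86 (SE 0.07, adjusted p = 1.73e-18). The change against the neighbours was 1.09 (SE 0.06, adjusted p = 3.17e-32) at 96h and 1.34 (SE 0.06, adjusted p = 1.73e-39) at 144h.

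At IL3-OHT 96h 3 of 8 receptors passed, where 17.5% of 17439 genes did: besides *Cx3cr1*, *Fpr2* was higher by 1.14 (SE 0.42, adjusted p = 0.0184) and *Cxcr2* lower, at -0.68 (SE 0.08, adjusted p = 1.04e-12). The *Fpr2* call was lost without replicate 2, at 1.10 (adjusted p = 0.0533), and without replicate 3, at 1.03 (adjusted p = 0.119). At IL3-OHT 144h 2 of 8 passed (15.4% of genes), *Cx3cr1* and *Fpr1*, the latter with 0.99 (SE 0.34, adjusted p = 0.0101) and 1.04 (adjusted p = 0.0508) without replicate 2. *Fpr1* had 31.9, 34.9 and 33.9 at 136h, 88.05, 108.4 and 105.5 at 144h, followed by 65.6, 95.5 and 64.01 at 152h. The *Cxcr4* change was negative at both, at -0.44 (SE 0.04, adjusted p = 1.54e-18) and -0.43 (SE 0.04, adjusted p = 5.19e-18), short of the fold-change threshold.

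The same places were tested in GCSF. At 144h 1 of 8 receptors passed (1.85% of genes), again *Cx3cr1*, with 2454 at 136h, 4906, 4778 and 4674 in the libraries at 144h and 3921 at 152h and a change of 0.63 (SE 0.07, adjusted p = 1.31e-13). At 96h, with 2 libraries, *Cxcr2* was at -0.57 (SE 0.09, adjusted p = 3.44e-07) and *Fpr1* at 0.77 (SE 0.39, adjusted p = 0.166), neither past both thresholds, where 4.65% of genes passed. Without replicate 1 *Cxcr2* passed at -0.68 (adjusted p = 3.48e-04). After the first renewal, *Cx3cr1* was at 0.31 (SE 0.06, adjusted p = 9.39e-05) in IL3 (1.60% of genes passed) and 0.28 (SE 0.06, adjusted p = 0.00147) in GCSF (0.350%) and did not pass the fold-change threshold. Whether the renewals, the plates or the handling of these wells moved the receptors was not tested.

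**Figure D4:**
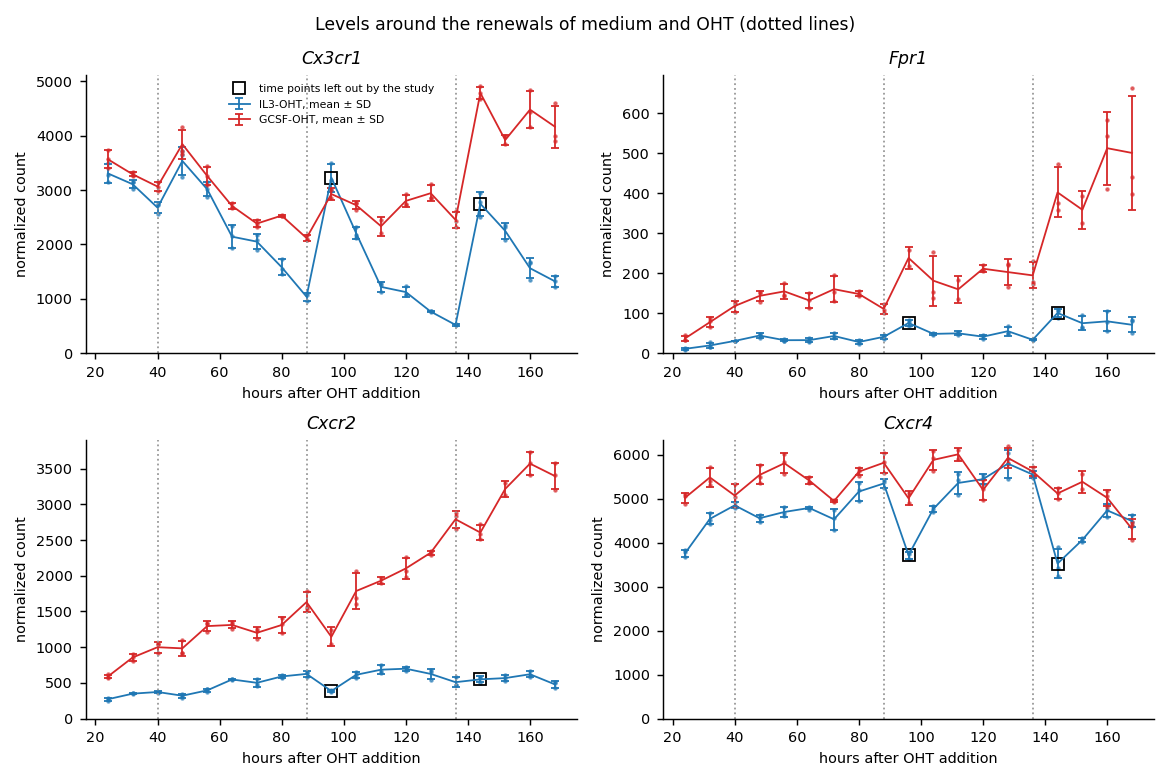
Normalized counts (y axis) of *Cx3cr1*, *Fpr1*, *Cxcr2* and *Cxcr4* from 24h on (x axis, hours after OHT addition) with means, SD and single libraries, dotted lines at the renewals at 40h, 88h and 136h, and squares at the IL3-OHT time points left out by the study. *Cx3cr1* in IL3 is higher 8 h after each renewal than at the time points on either side, at 3536, 3229 and 2748.

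Late in the courses, the time points from 152h to 168h were compared with those from 80h to 128h. In GCSF 5 of 8 receptors were higher at the end (6.23% of all genes were called): *Fpr1* by 1.36 (SE 0.21, adjusted p = 1.38e-08), *Cxcr2* by 0.997 (SE 0.05, adjusted p = 8.13e-37), *Ccr2* by 0.71 (SE 0.08, adjusted p = 3.35e-14), *Fpr2* by 0.71 (SE 0.25, adjusted p = 0.0169) and *Cx3cr1* by 0.68 (SE 0.04, adjusted p = 6.82e-33). The *Fpr2* call was lost without replicate 1, at 0.71 (adjusted p = 0.108), and without replicate 3, at 0.67 (adjusted p = 0.0731). In IL3 only *Fpr1*, by 0.77 (SE 0.20, adjusted p = 7.44e-04), and *Fpr2*, by 0.72 (SE 0.24, adjusted p = 0.0106), passed, 2 of 8 against 5.59% of all genes, and *Fpr2* did not pass without replicate 2, at 0.61 (adjusted p = 0.0707), or replicate 3, at 0.57 (adjusted p = 0.157). The other GCSF members, *Cxcr4* at -0.20 (SE 0.02, adjusted p = 4.44e-13) and *Ccr1* at 0.28 (SE 0.04, adjusted p = 8.43e-11), did not pass the fold-change threshold.

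Ranked per kilobase of transcript, the receptors kept *Cxcr4* and *Ccr1* at the top. In undifferentiated cells *Ccr1* had 2123 ± 94.1 and *Cxcr4* 2061 ± 92.5 normalized counts per kilobase (SD, n = 3), which did not differ beyond their spread, followed at a distance by *Cxcr2* with 128.1 ± 6.02. *Cx3cr1* with 13.8 ± 0.393 and *Ccr2* with 8.61 ± 3.96 came next, and *Fpr1*, *Ccr7* and *Fpr2* lay at or under the floor. At GCSF-OHT 168h the order was *Cxcr4* (2388 ± 123.3), *Ccr1* (1578 ± 70.9), *Cxcr2* (1116 ± 61.4), *Cx3cr1* (928 ± 85.5), *Ccr2* (563 ± 87.8), *Fpr1* (378 ± 108.03) and *Fpr2* (28.3 ± 5.50). At IL3-OHT 168h *Cx3cr1* (295 ± 22.9) and *Ccr2* (291 ± 31.97) did not differ beyond their spread and both stood above *Cxcr2* (157.2 ± 15.7).

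**Figure D5:**
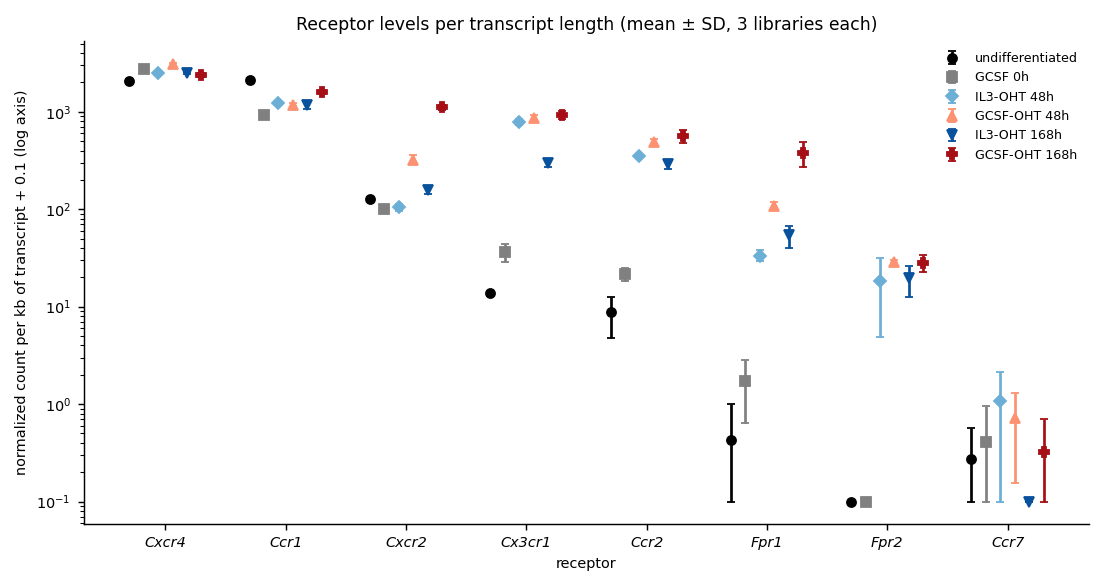
Normalized count per kilobase of transcript + 0.1 (y axis, log scale, mean and SD of 3 libraries) of the 8 receptors (x axis) in undifferentiated cells, at GCSF 0h and at 48h and 168h of both courses. *Cxcr4* and *Ccr1* hold the top in every group shown, *Cxcr2* reaches 1116 only at GCSF-OHT 168h, and *Ccr7* stays near the floor in all of them.

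The receptors did not move as one. Over the 54 means of condition and time point, which share the starting libraries and are a description only, Pearson's r of log2 levels was 0.936 between *Ccr2* and *Fpr2*, 0.918 between *Cxcr2* and *Fpr1* and 0.870 between the neighbouring *Fpr1* and *Fpr2*. Between *Ccr1* and the neighbouring *Ccr2* it was -0.332. Among the 12298 genes that averaged at least 10 normalized counts, those most like *Ccr2* were *Tlr8* (r = 0.970) and *Tyrobp* (r = 0.970), those most like *Cx3cr1* *Tifa* (r = 0.956) and *Relt* (r = 0.930), and those most like *Cxcr2* *AB124611* (r = 0.955), *Isg15* (r = 0.950) and *Irf7* (r = 0.949). The closest to *Fpr1* was *Syk* (r = 0.963), to *Fpr2* *Tyrobp* (r = 0.942), to *Cxcr4* *Vps28* (r = 0.945) and to *Ccr1* *Lrif1* (r = 0.891).

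The remaining genes of the pathway were counted from lists. Of 10 other chemokine receptors tested, only *Cxcr5* passed at IL3-OHT 168h, where it fell, at -1.07 (SE 0.25, adjusted p = 1.63e-04), and 3 rose and 1 fell at GCSF-OHT 168h against GCSF 0h, where 25.4% and 24.8% of all genes were called. The median log2 fold change was -0.41 and 0.51, against -0.03 and 0.00 over all genes tested. Among those that rose, *Cxcr1*, the closest relative of *Cxcr2*, went from 7.34 ± 5.23 to 43.96 ± 6.74 normalized counts (SD, n = 3 each), by 2.62 (SE 0.41, adjusted p = 1.48e-08). Against undifferentiated cells its rise at GCSF-OHT 168h was smaller, 0.99 (SE 0.41, adjusted p = 0.0279). Of 5 atypical chemokine receptors tested, which do not signal through G proteins, 1 rose and 1 fell in IL3. In GCSF 2 rose and 1 fell, against the same 25.4% and 24.8% of all genes called (medians 0.24 in IL3 and 0.64 in GCSF). *Ccrl2* rose in both courses, by 2.001 in IL3 and 2.60 in GCSF, and *Ackr3* fell in both, at -3.22 and -1.55. *Gpr182* rose in GCSF, by 1.22 (SE 0.39). Of the 5 further formyl peptide receptor genes, 0 passed the filter on low values.

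Receptors for other attractants were mixed, with 3 of 15 higher and 6 lower at IL3-OHT 168h and 4 higher and 3 lower at GCSF-OHT 168h against GCSF 0h (medians -0.44 and -0.02), against the same 25.4% and 24.8% of all genes called in either direction. *Ptafr*, the receptor of platelet-activating factor, rose by 3.23 (SE 0.09, adjusted p = 8.40e-63) from GCSF 0h to GCSF-OHT 168h. Against undifferentiated cells it was not among the 3 largest rises of this list, of which the smallest was 1.31. The C5a receptor *C5ar2* fell at IL3-OHT 168h, at -2.04 (SE 0.09, adjusted p = 1.06e-43), and with the GCSF pre-treatment, at -2.51. With the pre-treatment 3 of the 15 rose and 7 fell, where 33.7% of all genes were called. The leukotriene B4 receptor *Ltb4r1* rose most, by 2.05, and *Hcar2* fell most, at -4.42. Of 36 signalling genes of these receptors, 11 rose and 2 fell at IL3-OHT 168h and 15 rose and 1 fell at GCSF-OHT 168h against GCSF 0h, with medians of 0.43 and 0.45. Over all 17414 genes, 1782 rose and 2641 fell in the first of these comparisons (25.4% called) and 2110 rose and 2200 fell in the second (24.8%). *Coro1a*, an actin regulator of migrating leukocytes, rose in both, by 3.11 in IL3 and by 3.61 from GCSF 0h in GCSF. The pre-treatment before that gave a rise of 1.34. Its normalized counts were 44.7 ± 7.78 in undifferentiated cells, 392 ± 26.2 at IL3-OHT 168h and 1407 ± 77.2 at GCSF-OHT 168h (SD, n = 3 each).

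Ligand genes of these receptors differed between the courses as well. Over the shared time points 3 of 15 ligand genes were higher and 8 lower in GCSF, with a median of -0.80 against -0.06 over all genes, of which 24.5% were called, 1627 higher and 2635 lower. The Ccr1 ligands *Ccl6* and *Ccl9* were lower in GCSF, at -3.10 (SE 0.01, adjusted p = 4.61e-146) and -3.12 (SE 0.02, adjusted p = 1.21e-135), and *Ccl6* stood at 3989 ± 112.4 in undifferentiated cells, 25382 ± 489 at IL3-OHT 168h and 2511 ± 205.1 at GCSF-OHT 168h. The Cxcr2 ligand *Cxcl3* was lower in GCSF as well, at -4.23 (SE 0.05, adjusted p = 1.50e-101). The Fpr2 ligand *Saa3* was higher in GCSF by 3.84 (SE 0.03, adjusted p = 7.58e-121) and reached 9672 ± 1236 at GCSF-OHT 168h against 152.1 ± 51.5 at IL3-OHT 168h. *Cx3cl1*, which encodes fractalkine, fell in both courses, at -1.48 in IL3 and -2.54 from GCSF 0h in GCSF.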

How the data were processed

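RNA-seq libraries of PUER cells were analysed. Salmon was used by the authors for quantification against GRCm38 (mm10), and they deposited gene-level signal values, which are counts divided by DESeq2 size factors (median of ratios). How transcripts were summed to genes, the tool versions and strandedness are not given in the sources used here. Every deposited signal value above 0 was a whole multiple of 1 read (100.0% whole, tolerance 1e-06), 1 read being worth 0.652 to 1.84, so the reads could be recovered. Groups came from the sample labels. The titles of the GCSF 0h libraries name OHT while their treatment label does not, and the latter was used.

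Log2(value + 1) was fitted with limma 3.58.1 (trend, R 4.3.3) in the libraries of 54 groups, without IL3-OHT 96h and 144h. Genes needed a normalized count of at least 5 in 1 library or more, which left 17414 genes (17439 with all libraries, the fit behind the comparisons with neighbouring time points). A call required an adjusted p (Benjamini-Hochberg over all genes tested) below 0.05 together with a log2 fold change beyond 0.58 in either direction, the thresholds of the study, which used DESeq2. The pseudocount of 1 and the filter keep low genes such as *Fpr1*, *Fpr2* and *Ccr7* in the fit at low precision. Replicates differed by more than sampling noise in all 162 pairs (chi-square per gene 2.25 or more). All receptors were named in each comparison, and of each pathway list the 3 genes with the largest rise and fall among those called. The genes most like a receptor were ranked by Pearson's r over 54 means. The members and lists were chosen with earlier results of these data known.

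Alternatives were pseudocounts of 0.5 and 5, other filters (none, or a mean of at least 10), upper-quartile scaling, leaving out each replicate number, the replicate number as a block, IL3-OHT 96h and 144h included, only the groups compared, and edgeR 4.0.16 (TMM, quasi-likelihood) and DESeq2 1.42.0 on the recovered reads. Fits were checked on simulated data. Transcript lengths and positions came from GENCODE M21 and promoter windows from RefSeq (GRCm38.p6). Python 3.11.15, numpy 2.4.6, pandas 2.3.3, scipy 1.17.1 and matplotlib 3.10.9 were used.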

Additional observations from a re-analysis of the deposited data

Results flagged for a closer look

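The effect of OHT, taken from each course's own start, differed between GCSF and IL3 for 3 receptors at each of the endpoints tested, by limma's test of the difference itself, 3 of 8 against 27.4% of all genes at 8h and 25.7% at 168h, shares not far below. At 8h the effect in GCSF minus that in IL3 was 1.16 on the log2 scale for *Ccr1*, 1.13 for *Cxcr2* and 0.78 for *Cxcr4*. These receptors fell in IL3 by 8h, with log2 fold changes of -1.004, -1.68 and -0.87, and had 0.15, -0.55 and -0.10 in GCSF. At 168h the difference was 1.62 for *Ccr1*, 3.17 for *Cxcr2* and 1.64 for *Fpr1*. For *Ccr1* the starts differed, with 6014 ± 267 normalized counts in undifferentiated cells and 2611 ± 105.4 at GCSF 0h (SD, n = 3 each). The *Fpr1* difference starts from 1 read in the undifferentiated libraries together and was lost under 5 of its alternatives, as given above.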

How the results depend on the processing

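Of 1773 receptor values recomputed under the alternatives, 1720 kept their direction and their side of the thresholds, 31 lost a call, 22 gained one and 0 changed the direction of a call. Of 303 counts of receptors called, 288 stayed within 1.5 times the reported count. For GCSF-OHT 8h against GCSF 0h the count of 4 was 2 with a pseudocount of 5 and with only the groups compared. For IL3-OHT 152h to 168h against 80h to 128h the count of 2 was between 1 and 2 when each replicate was left out, and for IL3-OHT 144h against its neighbours likewise between 1 and 2. For GCSF-OHT 96h against its neighbours no receptor was called by limma, and *Cxcr2* made the count 1 with a pseudocount of 5, with the replicate block, with only the groups compared, in edgeR and in DESeq2, and between 0 and 1 when each replicate was left out. For GCSF-OHT 144h against its neighbours the count of 1 was 2 with a pseudocount of 5, with only the groups compared, in edgeR and in DESeq2. The cause of these changes was not tested. All alternatives for comparisons with neighbouring time points, single steps and single time points were chosen after seeing the data. *Fpr1* at IL3-OHT 96h against its neighbours, at 0.75 (SE 0.34, adjusted p = 0.0583), was called under 5 alternatives.

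The replicate numbers did not pair the libraries: correlations of same-numbered deviations ran from -0.118 to 0.036 over 27 pairs. The replicate block changed 1 of 140 receptor calls, that of *Cxcr2* at GCSF-OHT 96h, and otherwise none. On the recovered reads edgeR called 5663 genes and DESeq2 5416 for GCSF 0h against undifferentiated cells, where limma called 5861. Counts over all genes moved by more than 1.5 times in 6 comparisons. For 152h to 168h against 80h to 128h they went from 974 to 481 in IL3 and from 1085 to 623 in GCSF with a pseudocount of 5, and to 571 in IL3 with a mean of at least 10. Against neighbouring time points, the share of genes called at GCSF-OHT 144h went from 1.85% to 1.01% without replicate 1, and with only the groups compared the count moved by more than 1.5 times over a smaller set of 14015 genes tested, of which 1.37% were called. The count at GCSF-OHT 96h went from 811 to 424 without replicate 2. That at GCSF-OHT 48h went from 61 to 93 in edgeR, 23 without replicate 1 and 39 without replicate 3, and the share at IL3-OHT 48h from 1.60% to 0.651% without replicate 2. *Ccr7*, and *Fpr1* and *Fpr2* in the first 12h, lay near the floor of 3 reads, so that depth limits what can be said of them.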
